A study of Oryza sativa with 12 samples.

Results

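The genes described here were annotated as glycosyltransferases that use UDP sugars in roots of rice (Oryza sativa). They were chosen by annotation alone, as every gene listed at both NaCl levels whose description names a UDP-glucuronosyl, UDP-glucosyl or UDP-glycosyl transferase or any glucosyltransferase. This gave 104 of 24922 genes. The rule matched 113 genes among those listed at 0 mM NaCl and 110 among those listed at 150 mM NaCl, so that 9 and 6 genes, respectively, were listed at a single NaCl level and were not compared. UDP-dependent glycosyltransferases move a sugar, most often glucose, from a nucleotide sugar to a small acceptor such as a hormone, a flavonoid, a sterol or a toxin. The sugar makes the acceptor more soluble, usually stops it from acting, and lets it be stored in the vacuole. In plants the family inactivates cytokinins, auxin and salicylic acid. For some of the products this is reversible, because beta-glucosidases can take the glucose off again.

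The study asked how overexpression of OsERF106MZ, a transcription factor of the ERF family, changes gene expression in roots with and without salt. Wild-type Tainung 67 (TNG67) was compared with OE1, a single TNG67 line that carries 35Sp::OsERF106MZ, in which the cauliflower mosaic virus promoter drives the transgene in most tissues. Seedlings grown for 7 days were moved to medium with 0 mM NaCl (normal conditions) or 150 mM NaCl (NaCl-treated conditions) for 24 h, and RNA-seq libraries were made from pools of seedlings. The 4 groups were TNG67 without NaCl, OE1 without NaCl, TNG67 with NaCl and OE1 with NaCl, with 3 libraries each and 12 libraries in all.

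Library depth ranged from 16326661 to 22426883 reads. The overexpressed gene, Os08g0537900, had normalized counts of 667 to 958 in the TNG67 libraries and of 9135 to 10547 in the OE1 libraries, as labelled. The sample labels name roots and the paper's methods name belowground parts, whereas the series description names terrestrial parts, so markers of both organs were read. The summed normalized count of 3 root markers (RCc3, Lsi1 and Lsi2) was 52266 to 63522 in TNG67 and 63365 to 64998 in OE1 under normal conditions, and 10959 to 12917 and 20081 to 24723 under NaCl-treated conditions. The sum of the 3 leaf markers listed at both NaCl levels (of 4 fixed; 2 chlorophyll a/b-binding proteins and Rubisco activase) was 4398 to 6188 in TNG67 and 1617 to 2769 in OE1 under normal conditions, and 102 to 168 and 124 to 235 under NaCl-treated conditions. No marker of either list was at 0. Both lists moved with NaCl. With genotype, the leaf list was lower in OE1 without overlap under normal conditions, and the root list was higher in OE1 without overlap under NaCl-treated conditions, where RCc3 was a DEG (1.64, limma, adjusted p = 1.49e-07). Of the leaf list, Os01g0600900 (-1.2, limma, adjusted p = 0.00151) and Os11g0707000 (-1.59, adjusted p = 0.0448) were DEGs in untreated OE1. The part of these markers in the results below was not tested. In bulk libraries, fewer cells of a type and less RNA per cell cannot be told apart.

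The normalized counts used here were scaled for the depth of each library, and not for gene length, so that they compare libraries and not genes. The means of the 104 genes over 12 libraries ran from 5.53 to 7128, with a median of 74.0, and the 5 most read genes held 44.1% of the summed means. A mean under 20 was found for 17 genes, and 30 genes had under 10 reads in at least 1 library. By description, 63 genes carried only the family name and 18 another general name, while 6 were annotated for cytokinins, 3 for auxin, 3 for flavonoids, 3 for hydroquinone and 6 for sterols or ceramide. The remaining 2 genes were outside the family that the name brings to mind. Os03g0401300 encodes a sucrose synthase, which joins glucose and fructose in a reversible reaction, and Os04g0503700 encodes a protein with the domain of Alg10, which builds the sugar chain for proteins in the endoplasmic reticulum and takes its glucose from a lipid donor. The sterol and ceramide class also held Os02g0664200, annotated as UDP-glucose:glycoprotein glucosyltransferase, which re-glucosylates misfolded proteins there.

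DEGs were genes with an adjusted p below 0.05 (limma, Benjamini-Hochberg over the 24922 genes) whose log2 fold change was also above 1 or below -1. Fold changes are on the scale of log2(normalized count + 1), with the standard error (SE) of the fit. In TNG67, NaCl changed 40 of the 104 genes (38.5%), beside 19.3% of all genes; 21 were upregulated and 19 downregulated, beside 9.53% and 9.75% of all genes. In OE1, NaCl changed 32 (30.8%), beside 12.5% of all genes; 21 were upregulated and 11 downregulated, beside 6.66% and 5.84% of all genes. Between the genotypes, 13 genes (12.5%) differed under normal conditions, beside 5.26% of all genes, with 3 higher and 10 lower in OE1, beside 2.37% and 2.89% of all genes. Under NaCl-treated conditions 11 genes (10.6%) differed, beside 5.93% of all genes, with 6 higher and 5 lower in OE1, beside 2.44% and 3.49% of all genes. The 3 libraries of one group did not overlap with the 3 of the other in 73 of the 104 genes with NaCl in TNG67 (60.8% of all genes), in 61 with NaCl in OE1 (49.6%), in 57 for OE1 against TNG67 at 0 mM NaCl (38.3%) and in 51 at 150 mM NaCl (41.2%). The median log2 fold change of the 104 genes was 0.08 for NaCl in TNG67 and 0.12 in OE1, with 0.00 and 0.01 over all genes, and -0.16 and -0.14 for OE1 against TNG67 at 0 and 150 mM NaCl, with -0.02 and 0.00 over all genes. A DEG in at least 1 of these 4 comparisons was found for 54 genes (51.9%, beside 24.7% of all genes), and none for 50. Both marker lists also moved with NaCl, as given above. With genotype, the sums of the leaf list were without overlap only under normal conditions, and those of the root list only under NaCl-treated conditions.

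**Figure D1:**
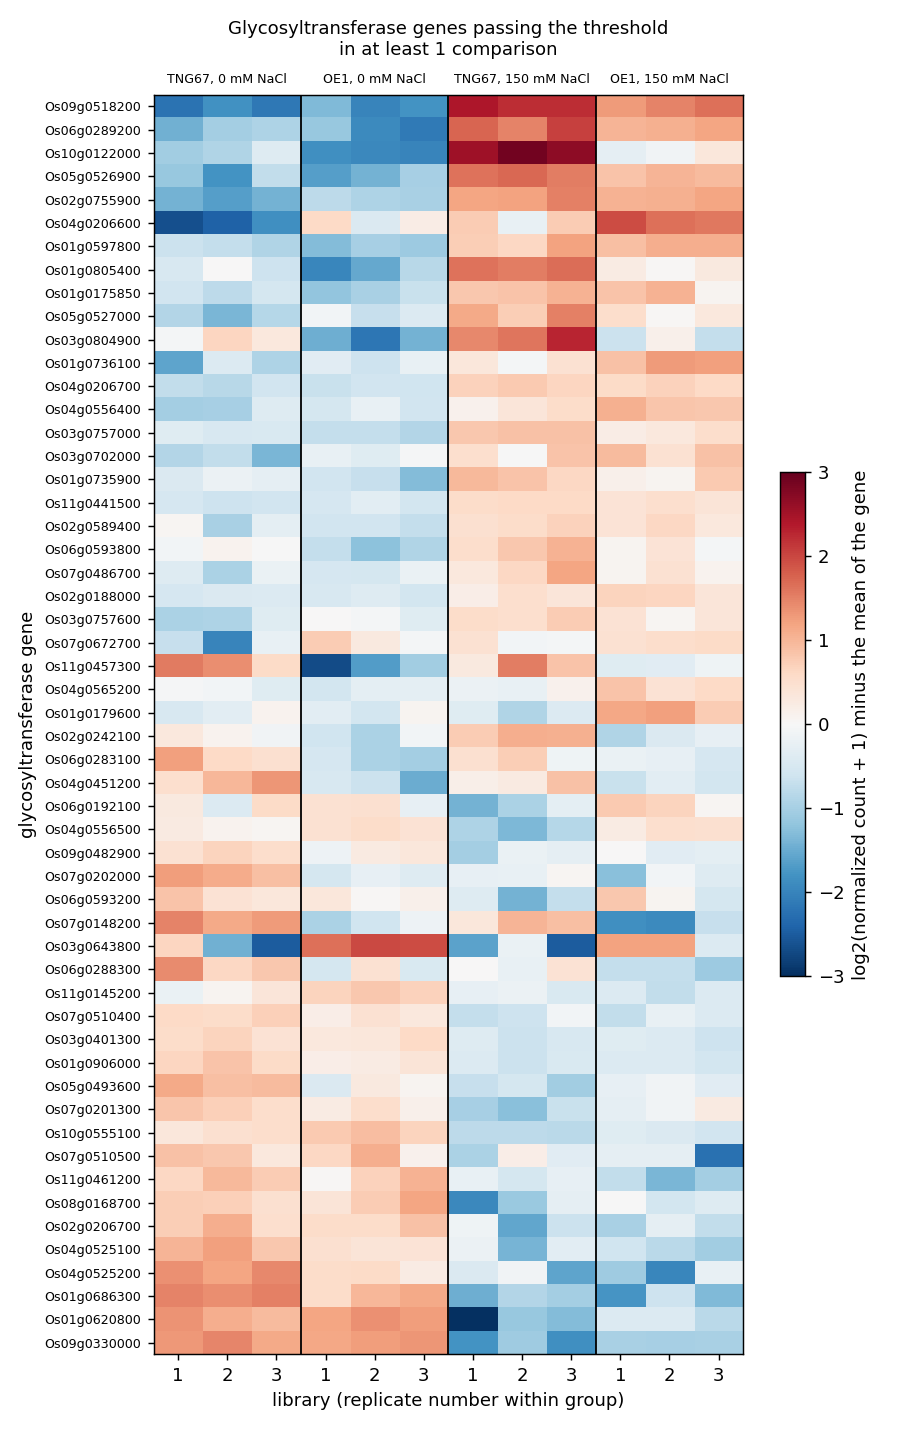
Glycosyltransferase genes that were DEGs in at least 1 of 4 comparisons (54 rows), ordered by the mean log2 fold change with NaCl. Columns are the 12 libraries in their 4 groups, and colour is log2(normalized count + 1) minus the mean of the gene, held at 3 in either direction. The upper rows are red in the NaCl-treated libraries of both genotypes and the lower rows blue, while Os10g0122000 and Os03g0804900 are deepest red in NaCl-treated TNG67 only.

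With NaCl, 15 genes (14.4%) rose in both genotypes, beside 5.43% of all genes, and 9 (8.65%) fell in both, beside 4.61%. DEGs in opposite directions numbered 0 among the 104 genes and 4 among all genes. A further 16 genes (15.4%) were DEGs in TNG67 and not in OE1, beside 9.22% of all genes, and 8 (7.69%) in OE1 and not in TNG67, beside 2.44%; whether the response itself differed was tested gene by gene and is given below. The 2 comparisons use different libraries.

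**Figure D2:**
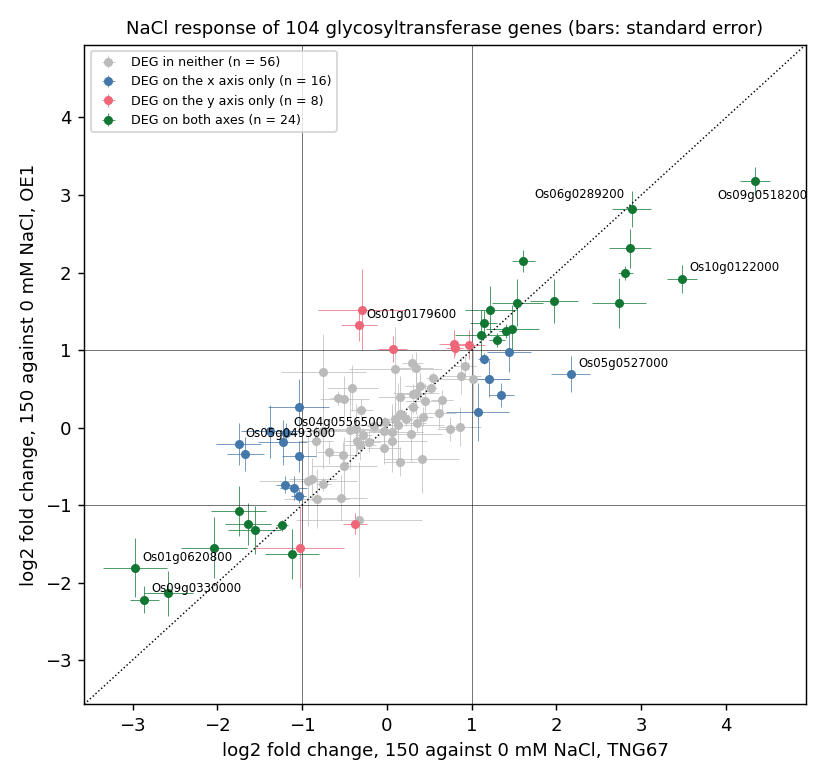
Log2 fold change of the 104 genes with NaCl in TNG67 (x axis) and in OE1 (y axis); bars are standard errors, thin lines mark a log2 fold change of 1 in either direction and the dotted line equal change. The 24 genes that were DEGs in both genotypes lie in the upper right and lower left corners, and Os09g0518200, Os10g0122000 and Os05g0527000 lie below the dotted line on the right.

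Os09g0518200 is known as OsSGT1, an enzyme that glucosylates salicylic acid and takes part in chemically induced resistance to blast disease. Its normalized counts were 22.4, 29.7 and 23.6 in TNG67 and 41.9, 26.2 and 30.3 in OE1 under normal conditions, and 582, 500 and 505 in TNG67 and 262, 302 and 338 in OE1 with NaCl. Every NaCl-treated library was above every untreated library, and the NaCl-treated libraries of the genotypes did not overlap. The gene rose by 4.34 ± 0.18 (SE; 20.3-fold; limma, adjusted p = 8.32e-13) in TNG67, the largest rise among the 104 genes, and by 3.18 ± 0.18 (9.04-fold, adjusted p = 1.07e-10) in OE1. The response in OE1 was smaller by 1.17 ± 0.25 on the log2 scale (interaction -1.17, limma, adjusted p = 0.00639). Under NaCl-treated conditions the log2 fold change of OE1 against TNG67 was -0.82 (adjusted p = 0.00207), short of the fold threshold.

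Os10g0122000, annotated by family name only, had normalized counts of 60.4, 66.8 and 96.5 in TNG67 and 34.2, 32.3 and 31.3 in OE1 under normal conditions. With NaCl the values were 737, 941 and 813 in TNG67 and 105, 118 and 160 in OE1. The 4 groups did not overlap, and the NaCl-treated OE1 libraries were closer to untreated TNG67 than to NaCl-treated TNG67. The rise with NaCl was 3.48 ± 0.18 (limma, adjusted p = 1.82e-11) in TNG67 and 1.92 ± 0.18 (adjusted p = 1.02e-07) in OE1. The gene was lower in OE1 at both NaCl levels, by log2 fold changes of -1.14 ± 0.18 (adjusted p = 0.000193) and -2.71 ± 0.18 (6.53-fold, adjusted p = 6.73e-09), the largest fall in OE1 under NaCl-treated conditions. The difference of these effects was -1.57 ± 0.26 (adjusted p = 0.00096). Without replicate 3 of untreated TNG67 the log2 fold change under normal conditions was -0.94 and did not reach the fold threshold.

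Os04g0206600 is known as Os79, a UDP-glucosyltransferase of known crystal structure that detoxifies the fungal toxin deoxynivalenol. Its normalized counts under normal conditions were 4.48, 5.30 and 8.58 in TNG67 and 50.8, 24.2 and 38.6 in OE1, and with NaCl 57.1, 28.3 and 57.2 in TNG67 and 132, 106 and 101 in OE1. OE1 was above TNG67 in every library at each NaCl level, and untreated OE1 overlapped with NaCl-treated TNG67. The log2 fold change of OE1 against TNG67 was 2.43 ± 0.32 (limma, adjusted p = 2.7e-05) at 0 mM NaCl and 1.29 ± 0.32 (adjusted p = 0.0057) at 150 mM NaCl, and without replicate 2 of NaCl-treated TNG67 the second fell to 0.96, short of the threshold. NaCl raised the gene by 2.74 ± 0.32 (limma, adjusted p = 7.33e-07) in TNG67 and 1.61 ± 0.32 (adjusted p = 0.000506) in OE1. The difference of the responses, -1.14, did not pass the limma test (adjusted p = 0.112). This difference passed without replicate 2 of NaCl-treated TNG67. The next gene on the chromosome, Os04g0206700, rose with NaCl by 1.41 in TNG67 and 1.24 in OE1, with normalized counts of 232 to 276 in TNG67 and 257 to 275 in OE1 under normal conditions, where the genotypes overlapped.

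**Figure D3:**
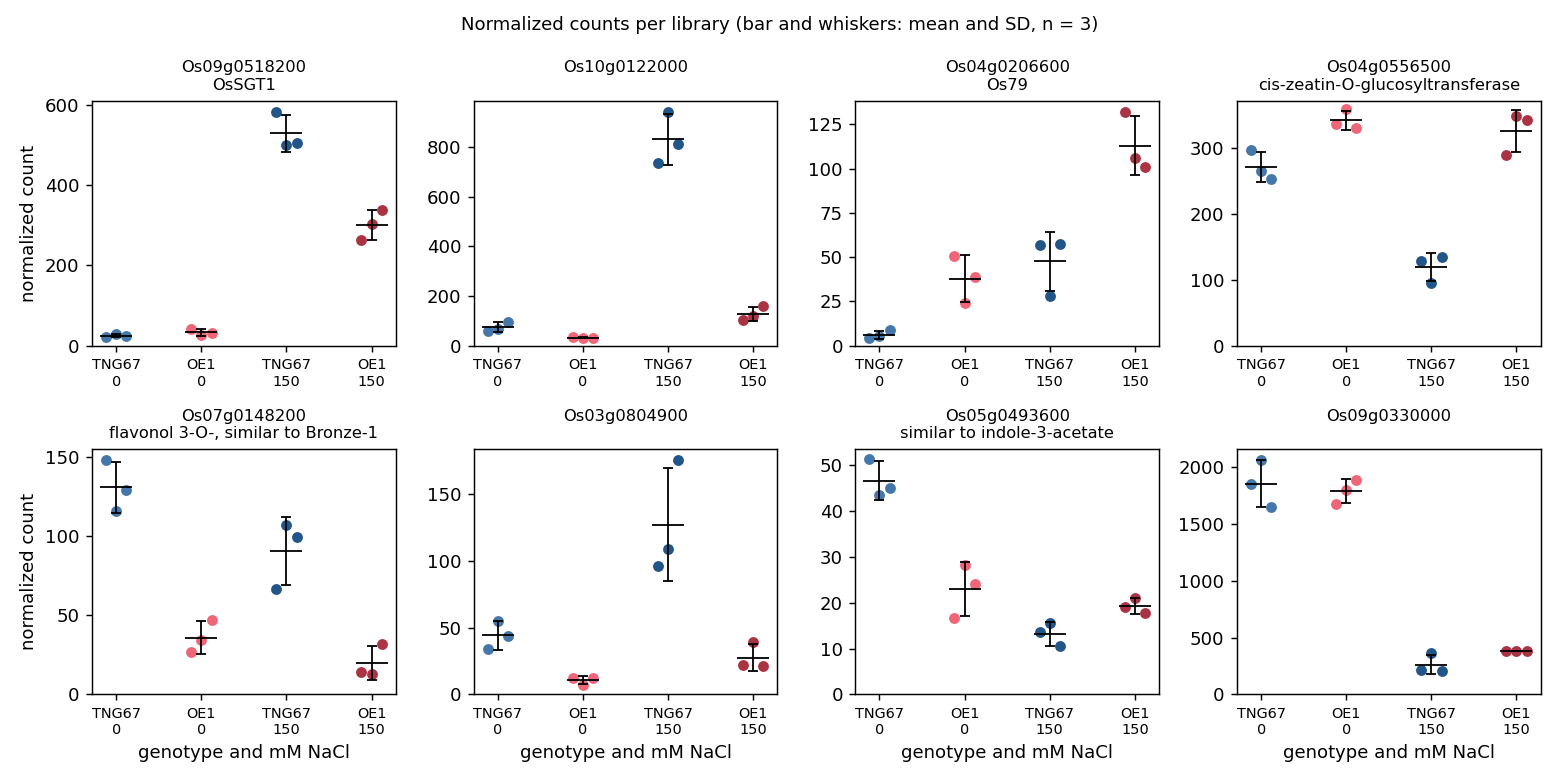
Normalized counts of 8 glycosyltransferase genes in each library (points), with the mean and SD of the 3 libraries of a group (bar and whiskers), by genotype and mM NaCl; every y axis starts at 0. With NaCl, Os09g0518200 and Os10g0122000 reach 500 to 582 and 737 to 941 in TNG67 and stay lower in OE1, while Os04g0556500 falls to 94.7 to 135 in TNG67 only.

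Other genes rose strongly in both genotypes. Os06g0289200 had 25.7, 35.0 and 37.5 normalized counts in TNG67 and 32.0, 18.2 and 15.6 in OE1 under normal conditions, and 243, 202 and 301 and 147, 152 and 164 with NaCl. It rose by 2.89 ± 0.23 in TNG67 and 2.82 ± 0.23 in OE1 (limma, adjusted p = 6.6e-09 and 1.84e-08), without overlap. Os02g0755900, one of the 5 most read genes, had 609, 518 and 610 in untreated TNG67 and 951, 866 and 836 in untreated OE1, and 3727, 3774 and 4698 and 3368, 3443 and 3719 with NaCl. Its rise was 2.81 ± 0.09 in TNG67 and 1.99 ± 0.09 in OE1, and the OE1 response was the smaller one (interaction -0.82 ± 0.13, limma, adjusted p = 0.000681). Os01g0597800 rose by 1.61 in TNG67 and 2.15 in OE1, a difference that did not pass the limma test (adjusted p = 0.083). This difference passed without replicate 3 of NaCl-treated TNG67. Among the 15 genes that rose in both genotypes, the fitted rise was larger in TNG67 for 10 (66.7%) and in OE1 for 5, and over all genes that rose in both it was larger in TNG67 for 76%.

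Of the genes that fell with NaCl, Os09g0330000, annotated by family name only, had the largest fall in OE1. Its normalized counts were 1850, 2062 and 1650 in TNG67 and 1677, 1800 and 1888 in OE1 under normal conditions, and 217, 360 and 208 in TNG67 and 384, 379 and 382 in OE1 with NaCl. The fall was -2.86 ± 0.17 (limma, adjusted p = 3.7e-08) in TNG67 and -2.22 ± 0.17 (adjusted p = 6.92e-07) in OE1. The difference of the responses, 0.63, did not pass the limma test (adjusted p = 0.115). This difference passed in DESeq2 and without replicate 2 of NaCl-treated TNG67. Os01g0620800 had 131, 109 and 98.7 in untreated TNG67 and 118, 133 and 123 in untreated OE1, and 5.12, 22.5 and 20 and 38.0, 38.2 and 28.9 with NaCl. It fell by 2.97 in TNG67 (log2 fold change -2.97, adjusted p = 1.09e-05) and by 1.81 in OE1 (-1.81, adjusted p = 0.00147). Its higher level in OE1 under NaCl-treated conditions (1.31, adjusted p = 0.0205) was 0.69 without replicate 1 of NaCl-treated TNG67, and the call was also lost without replicate 1 or replicate 2 of NaCl-treated OE1 and in a fit of 6 libraries. Os01g0686300 fell by log2 fold changes of -2.58 in TNG67 and -2.14 in OE1. The neighbours Os04g0525100 and Os04g0525200 fell together, by -1.64 and -2.04 in TNG67 and by -1.24 and -1.55 in OE1. Os11g0461200 fell by -1.12 in TNG67 and -1.63 in OE1. Os07g0510500 was a DEG in OE1 alone (-1.55, adjusted p = 0.0248) at 0.802 to 17.2 normalized counts, and the call was lost without any 1 of 3 OE1 libraries (replicates 1 and 2 without NaCl and replicate 3 with NaCl; -0.90 at the weakest).

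The 5 most read genes were Os03g0401300, Os02g0664200, Os02g0755900, Os01g0638000 and Os04g0320700. The sucrose synthase gene Os03g0401300 had 9780, 10633 and 9077 normalized counts in TNG67 and 8355, 8496 and 10218 in OE1 under normal conditions, and 5141, 4311 and 4849 and 5221, 5078 and 4373 with NaCl. It fell with NaCl by 1.04 in TNG67 (-1.04 ± 0.09, limma, adjusted p = 4.81e-08), which was -0.97 without replicate 2 of either TNG67 group at the weakest, and the log2 fold change in OE1 was -0.88, short of the threshold. The summed normalized count of all 104 genes was 36742 to 37818 in untreated TNG67 and 37342 to 40406 in NaCl-treated TNG67, and 35060 to 36075 and 35047 to 35785 in OE1. Without the sucrose synthase gene the sum was 26963 to 28277 and 32200 to 35557 in TNG67, and 25857 to 26705 and 30564 to 30673 in OE1. It was higher with NaCl in every library of each genotype. These sums hold Os02g0755900, whose mean normalized count went from 579 to 4066 in TNG67 and from 884 to 3510 in OE1. A higher sum is therefore not a rise across the genes. Os01g0638000 had 1582 to 2263 in untreated TNG67 and 2306 to 3042 in untreated OE1, and did not pass the test (0.47, adjusted p = 0.0663). Os04g0320700 had log2 fold changes of -0.46 for OE1 against TNG67 at each NaCl level and of 0.52 and 0.51 with NaCl, and Os02g0664200 had fold changes within 0.31 of 0 in each comparison.

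The 4 genes lower in OE1 at both NaCl levels were Os10g0122000, Os03g0804900, Os07g0148200 and Os01g0805400, and the 2 higher at both were Os04g0206600 and Os03g0643800. These were 3.85% and 1.92% of the 104 genes, beside 1.28% and 0.995% of all genes. DEGs in opposite directions numbered 0 among the 104 genes and 12 among all genes. Another 7 genes (6.73%) were DEGs under normal conditions only, beside 2.94% of all genes, and 5 (4.81%) under NaCl-treated conditions only, beside 3.61%. The root markers were also higher in NaCl-treated OE1, and the leaf markers lower in untreated OE1.

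**Figure D4:**
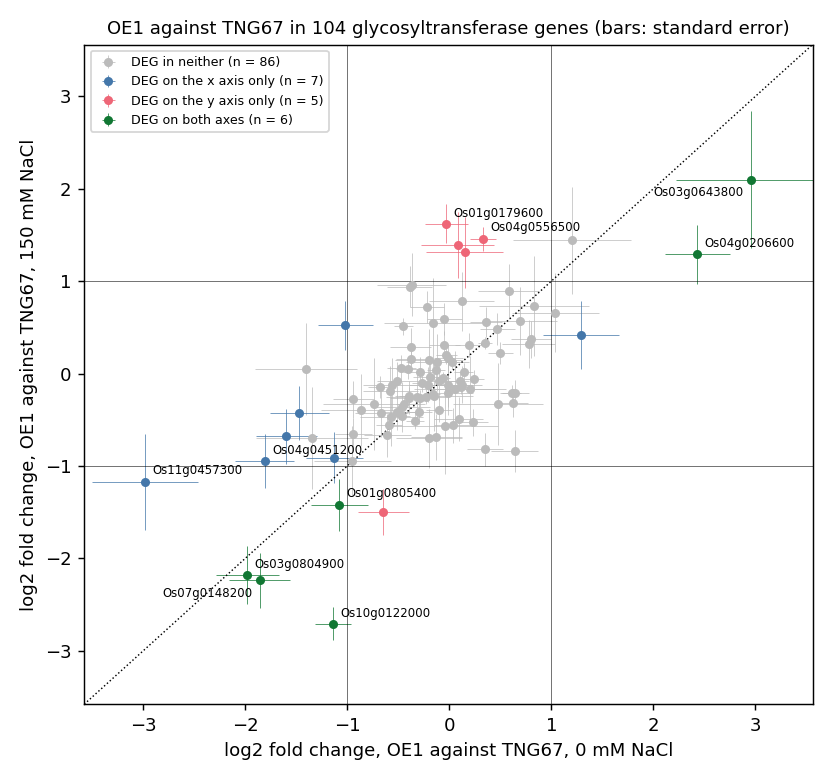
Log2 fold change of the 104 genes in OE1 against TNG67 at 0 mM NaCl (x axis) and 150 mM NaCl (y axis); bars are standard errors, thin lines mark a log2 fold change of 1 in either direction and the dotted line equal change. The 6 genes that were DEGs at both NaCl levels are labelled, with 4 in the lower left and 2 in the upper right.

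Os03g0804900 had normalized counts of 33.6, 55.1 and 44.0 in TNG67 and 12.1, 7.07 and 12.5 in OE1 under normal conditions, and 96.4, 109 and 175 in TNG67 and 22, 39.2 and 20.9 in OE1 with NaCl. The genotypes did not overlap at either NaCl level. OE1 was lower by log2 fold changes of -1.98 ± 0.31 (limma, adjusted p = 0.000154) and -2.18 ± 0.31 (adjusted p = 3.91e-05). NaCl raised the gene in TNG67 (1.48) and in OE1 (1.27), although the rise in OE1 was 0.99 without replicate 2 of NaCl-treated OE1. Os01g0805400 had 20.1, 28.6 and 18.2 in TNG67 and 6.62, 9.09 and 15.6 in OE1 under normal conditions, and 89.5, 85.0 and 92.5 and 34.0, 29.1 and 35.3 with NaCl, without overlap. Its log2 fold change in OE1 was -1.08 (adjusted p = 0.0105) and -1.42 (adjusted p = 0.00114). The first was -0.82 at the weakest when replicate 2 of untreated TNG67 or replicate 1 of untreated OE1 was left out, and was no longer a call; a fit of 6 libraries also lost it.

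The hydroquinone class, named for enzymes that make arbutin-like glucosides in other plants, held Os03g0643800 and Os02g0242100 among its DEGs. Os03g0643800 had 7.83, 1.06 and 0 normalized counts in TNG67 and 16.6, 21.2 and 20.9 in OE1 under normal conditions, and 0.853, 3.91 and 0 in TNG67 and 12, 12.1 and 3.21 in OE1 with NaCl. At such counts its fold changes of 2.96 (limma, adjusted p = 0.00822) and 2.1 (adjusted p = 0.0459) depend on the pseudocount, and at 150 mM NaCl the genotypes overlapped and the call was lost in 8 of 12 fits that left out a library (1.57 to 2.71). Those 8 left out replicate 2 of untreated TNG67, any replicate of untreated OE1, replicate 1 or 3 of NaCl-treated TNG67, or replicate 1 or 2 of NaCl-treated OE1. Os02g0242100 had 75.0, 94.7 and 92.5 in NaCl-treated TNG67 and 23.0, 32.1 and 36.9 in NaCl-treated OE1 (-1.50 ± 0.25, adjusted p = 0.000203), with no overlap. Under normal conditions its values were 54.8, 47.7 and 40.8 in TNG67 and 28.7, 22.2 and 41.7 in OE1, and the groups overlapped. The third gene, Os02g0242900, was no DEG in any comparison.

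Flavonoid glycosyltransferases attach glucose to flavonols, anthocyanidins or flavones, pigments and ultraviolet screens of plants. Os07g0148200 is annotated as similar to the flavonol 3-O-glucosyltransferase Bronze-1 of maize. It had 148, 116 and 129 normalized counts in TNG67 and 26.5, 34.3 and 46.9 in OE1 under normal conditions, and 66.5, 107 and 99.2 in TNG67 and 14.0, 13.1 and 32.1 in OE1 with NaCl. OE1 was lower without overlap, by log2 fold changes of -1.86 ± 0.30 (limma, adjusted p = 0.000278) and -2.24 ± 0.30 (adjusted p = 3.31e-05). Os06g0288300, annotated as a C-glucosyltransferase, had 109, 62.5 and 71.9 in untreated TNG67 and 27.6, 55.5 and 29.2 in untreated OE1. With NaCl it had 40.9, 34.2 and 54.4 in TNG67 and 24.0, 24.1 and 18.5 in OE1. It was lower in OE1 under normal conditions (-1.13, adjusted p = 0.00806), a call lost without replicate 1 of untreated TNG67 or replicate 1 or 3 of untreated OE1 (-0.90 at the weakest), and was at -0.91 with NaCl. Os06g0192100, annotated for flavonoid 3-O-glucosylation, went the other way: with NaCl it had 6.82, 9.77 and 16.2 in TNG67 and 35.0, 32.1 and 20.9 in OE1 (1.39, adjusted p = 0.00764). Its fall with NaCl in TNG67 (-1.04, adjusted p = 0.0198) was lost without replicate 1 or 3 of untreated TNG67 or replicate 1 of NaCl-treated TNG67, at -0.77 in the weakest fit. The leaf markers were also lower in untreated OE1, as given above.

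Cytokinin glucosyltransferases inactivate the hormone by adding glucose to its side chain (O-glucosides) or its ring (N-glucosides). Os04g0556500, which glucosylates cis-zeatin, had 297, 265 and 253 normalized counts in TNG67 and 337, 359 and 331 in OE1 under normal conditions, and 128, 94.7 and 135 in TNG67 and 290, 348 and 342 in OE1 with NaCl. NaCl-treated TNG67 stood below all other groups. The gene fell with NaCl in TNG67 (-1.19 ± 0.13, limma, adjusted p = 2.82e-07), with -0.07 ± 0.13 in OE1, and was higher in OE1 under NaCl-treated conditions (1.46 ± 0.13, adjusted p = 2.22e-07). The responses of the genotypes differed by 1.12 ± 0.18 (adjusted p = 0.000907). Os04g0565200, annotated as similar to a cis-zeatin O-glucosyltransferase of maize, had 83.9, 81.6 and 66.5 in TNG67 and 58.5, 70.7 and 69.9 in OE1 under normal conditions, and 76.7, 73.2 and 94.4 and 157, 116 and 131 with NaCl. Its response was larger in OE1 (interaction 0.93, adjusted p = 0.0186), and this call was lost without replicate 1 of untreated TNG67, untreated OE1 or NaCl-treated OE1 (0.82 at the weakest). The rise in OE1 (1.01, adjusted p = 0.000108) sat at the fold threshold, and was lost without replicate 1 of untreated or NaCl-treated OE1 and in edgeR or under TMM scaling. Os08g0168700, annotated for cytokinin O-glucosylation, fell in TNG67 (-1.75) and OE1 (-1.08), whereas Os07g0486700, of the same annotation, rose in TNG67 (1.21) with 0.63 in OE1. The 2 genes annotated for cytokinin N-glucosylation, Os03g0824600 and Os07g0241700, were no DEGs.

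Of the 3 genes annotated as similar to indole-3-acetate beta-glucosyltransferase, which binds auxin to glucose, 1 was a DEG. Over all genes, 24.7% were DEGs in at least 1 of the 4 comparisons. Os05g0493600 had 51.5, 43.5 and 45.0 normalized counts in TNG67 and 16.6, 28.3 and 24.0 in OE1 under normal conditions, and 13.6, 15.6 and 10.5 in TNG67 and 19.0, 21.1 and 17.7 in OE1 with NaCl. Untreated TNG67 stood above all other libraries, and OE1 was above TNG67 without overlap with NaCl, although that difference did not pass the test (0.52, limma, adjusted p = 0.178). The fall with NaCl was -1.75 ± 0.27 (limma, adjusted p = 2.37e-05) in TNG67, with -0.21 ± 0.27 in OE1, and the difference was 1.54 ± 0.39 (adjusted p = 0.0155). Under normal conditions the log2 fold change of OE1 was -1.02 (adjusted p = 0.0114), lost in edgeR and without replicate 1 of untreated TNG67 or of untreated OE1 (-0.81 at the weakest). Os01g0805500 and Os09g0518000 had at most 21.2 normalized counts in any library and did not pass the test.

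The sterol and ceramide class held 6 genes. A DEG in at least 1 of the 4 comparisons was found for 1, beside 24.7% of all genes. Os01g0906000, similar to ceramide glucosyltransferase, which makes the glucosylceramides of plant membranes, was the single DEG of the class. It had 416, 483 and 397 normalized counts in untreated TNG67 and 201, 170 and 193 in NaCl-treated TNG67 (-1.20, limma, adjusted p = 2.87e-08), with -0.74 in OE1. Sterol glucosyltransferases make steryl glucosides of membranes, and Os04g0131900 and Os07g0419500, similar to such enzymes, had 968 to 1172 and 671 to 846 normalized counts across the 12 libraries.

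Further differences between the genotypes fell on genes annotated in general terms. Os04g0451200 had 57.1, 81.6 and 102 normalized counts in TNG67 and 28.7, 25.2 and 13.6 in OE1 under normal conditions (-1.81 ± 0.29, limma, adjusted p = 0.00021), and -0.95 with NaCl. Os06g0283100 had 58.2, 37.1 and 34.3 in TNG67 and 16.6, 12.1 and 11.5 in OE1 under normal conditions (-1.60 ± 0.30, adjusted p = 0.000763). In neither gene did the untreated genotypes overlap. Os11g0457300 had 17.9, 15.9 and 8.58 in untreated TNG67 and 0, 1.01 and 2.09 in untreated OE1, so that the fitted fold change of -2.98 (adjusted p = 0.000439) depends on the pseudocount. Its rise with NaCl in OE1 (1.52, adjusted p = 0.0261), to 4, 4.02 and 4.81, was lost in edgeR, in DESeq2, in a fit of 6 libraries and when replicate 1 of untreated OE1 or any replicate of NaCl-treated OE1 was left out (1.08 at the weakest). Os07g0672700 was higher in untreated OE1, at 40.8, 29.3 and 22.9 beside 14.5, 5.30 and 20.4 in TNG67 (1.29, adjusted p = 0.0171), a call lost without replicate 2 of untreated TNG67 or replicate 1 of untreated OE1 (0.77 at the weakest). Its rise with NaCl in TNG67 (1.07, adjusted p = 0.0199) was lost in edgeR, in DESeq2 and without replicate 2 of untreated TNG67 or replicate 1 of NaCl-treated TNG67 (0.55 at the weakest). Os01g0179600 had 57.1, 63.6 and 85.8 in TNG67 and 64.0, 54.5 and 84.5 in OE1 under normal conditions, and 61.4, 42.0 and 60.1 in TNG67 and 181, 190 and 136 in OE1 with NaCl. The NaCl-treated OE1 libraries stood above all others, with a rise of 1.32 ± 0.21 (adjusted p = 6.66e-05) in OE1, -0.33 ± 0.21 in TNG67 and a difference of 1.65 ± 0.30 (adjusted p = 0.00233).

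The response to NaCl differed between the genotypes in 14 of the 104 genes (13.5%; interaction test, adjusted p below 0.05), beside 11.4% of all genes. It was more positive in OE1 for 7 and more negative for 7, beside 5.2% and 6.17% of all genes. Of the 14, 5 were upregulated and 3 downregulated by NaCl in TNG67. In Os11g0599200 the genotypes moved in opposite directions and changed order. TNG67 went from 948, 884 and 1067 normalized counts to 571, 640 and 733, and OE1 from 665, 767 and 684 to 921, 937 and 901. OE1 was thus below TNG67 without overlap under normal conditions and above it without overlap with NaCl. The log2 fold change was -0.58 in TNG67 and 0.38 in OE1, both within the fold threshold, and the difference was 0.96 ± 0.13 (limma, adjusted p = 0.000197). Os11g0145200 had 171, 208 and 254 in TNG67 and 314, 347 and 318 in OE1 under normal conditions, and 165, 173 and 143 and 148, 118 and 148 with NaCl. It fell in OE1 (-1.24, adjusted p = 1.12e-06), and the difference from TNG67 was -0.86 (adjusted p = 0.0107).

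Many glycosyltransferase genes lie next to each other, as copies in tandem. By identifier, 28 of the 104 genes formed 8 groups of at least 3 neighbours. In no group were all members DEGs with NaCl in either genotype, although the log2 fold changes had 1 sign in both genotypes in the groups of Os02g0755900 (positive) and Os07g0201300 (negative). In the group from Os05g0526800 to Os05g0527100, the middle genes rose and the outer ones were no DEGs. Os05g0526900 had 22.4, 13.8 and 30.0 normalized counts in untreated TNG67 and 160, 171 and 150 with NaCl (2.87 ± 0.25, limma, adjusted p = 1.43e-08), and 15.4, 18.2 and 25.0 and 92.9, 104 and 99.5 in OE1 (2.31). Os05g0527000 had 31.3, 22.3 and 32.2 and, with NaCl, 131, 99.6 and 170 in TNG67 (2.17), and 55.2, 36.3 and 43.8 and 85.9, 60.3 and 73.8 in OE1 (0.69), a difference of -1.48 ± 0.33 (adjusted p = 0.0081). The outer genes had log2 fold changes of -0.35 and -0.68 in TNG67.

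In the group of Os03g0757000, Os03g0757500 and Os03g0757600, the middle gene is the GSA1 locus, known in rice for grain size and tolerance of abiotic stress. It had 6.44 to 19.1 normalized counts across the 12 libraries and did not pass the test in any comparison. Os03g0757000 rose by 1.30 in TNG67 and 1.13 in OE1. Os03g0757600 had 151, 153 and 226 in untreated TNG67 and 427, 414 and 497 with NaCl (1.35, limma, adjusted p = 9.59e-07), and 297, 280 and 228 and 398, 304 and 374 in OE1 (0.42), a difference of -0.94 (adjusted p = 0.0113). Near Os07g0201300, that gene fell in TNG67 from 78.3, 72.1 and 63.3 to 21.3, 17.6 and 26.7 (-1.67, adjusted p = 3.77e-06), with -0.34 in OE1 and a difference of 1.33 (adjusted p = 0.0114). Its neighbour Os07g0202000 fell in TNG67 by -1.23, and Os07g0201500 was no DEG. The 5 genes from Os07g0240600 to Os07g0241800 and the groups that begin with Os05g0499600 and Os07g0502900 held no DEG with NaCl. The shares of all genes were 19.3% in TNG67 and 12.5% in OE1. Reads of near-identical copies cannot always be assigned to 1 gene, so that values of tandem copies carry this doubt.

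**Figure D5:**
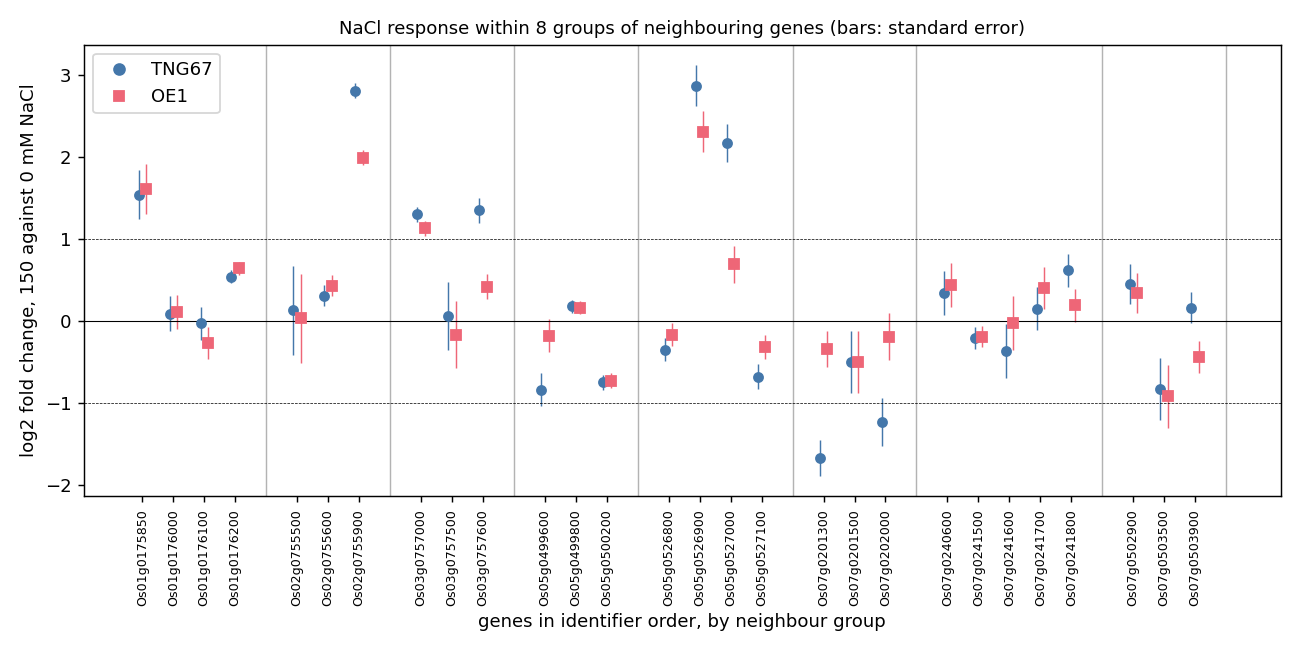
Log2 fold change with NaCl in TNG67 (circles) and OE1 (squares) for the 28 genes in 8 groups of neighbours, in identifier order; bars are standard errors and dashed lines mark a log2 fold change of 1 in either direction. Os05g0526900 and Os05g0527000 stand above both of their neighbours, and the groups that begin with Os05g0499600, Os07g0240600 and Os07g0502900 stay between the dashed lines.

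Genes that make or use the sugar donor of these enzymes, and genes described as beta-glucosidases, were counted beside them. Of 9 genes that convert UDP-glucose or its precursors, 0 were DEGs between the genotypes by limma at either NaCl level. With NaCl, 2 of the 9 fell in TNG67 (22.2%, beside 19.3% of all genes), and 0 were DEGs in OE1, beside 12.5% of all genes. The 2 were Os08g0374800 (an epimerase between UDP-glucose and UDP-galactose, -1.12) and Os12g0443500 (a UDP-glucose 6-dehydrogenase, which makes the UDP-glucuronate of cell walls, -1.59). In a list of 9 genes, a count of 0 beside these shares does not show a lack of change. The counts of 0 by limma were also 0 by edgeR and DESeq2. At an unadjusted limma p below 0.05, 5 and 3 of the 9 genes passed for OE1 against TNG67 at 0 and 150 mM NaCl. For NaCl in OE1, 4 passed. Over all 24922 genes 8559, 9177 and 11461 passed, in the same order. The response to NaCl differed between the genotypes for 4 of the 9 (44.4%, beside 11.4% of all genes), Os12g0443500 (0.68), Os08g0374800 (0.50), Os03g0757900 (0.41) and Os09g0323000 (-0.41), with 4 also by DESeq2 and 3 by edgeR. Of 28 genes described as beta-glucosidases or as glycoside hydrolases of family 1, NaCl raised 6 and lowered 5 in TNG67 (39.3%, beside 19.3% of all genes), and raised 5 and lowered 5 in OE1 (35.7%, beside 12.5%). OE1 was higher than TNG67 for 2 and lower for 0 under normal conditions (7.14%, beside 5.26% of all genes), and higher for 3 and lower for 4 under NaCl-treated conditions (25%, beside 5.93%). The response to NaCl was more positive in OE1 for 4 and more negative for 5 (32.1%, beside 11.4% of all genes). Their median log2 fold changes with NaCl were 0.06 in TNG67 and 0.00 in OE1. Without the endo-1,3-beta-glucosidases, which cut glucan chains, 21 genes remained, of which NaCl raised 3 and lowered 4 in each genotype. This was 33.3% in each, beside 19.3% of all genes in TNG67 and 12.5% in OE1. Of the same 21 genes, 2 were higher and 0 lower in OE1 under normal conditions (9.52%, beside 5.26% of all genes). Under NaCl-treated conditions 3 were higher and 1 lower in OE1 (19%, beside 5.93%). The response to NaCl was more positive in OE1 for 4 and more negative for 4 (38.1%, beside 11.4%).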

How the data were processed

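RNA-seq was measured in 12 libraries, 3 for each of 4 groups taken from the sample labels. The authors trimmed paired-end reads with Trimmomatic 0.38 and aligned them to IRGSP-1.0 with HISAT2 2.1.0. The deposited signal values are read counts per gene that the authors scaled by library, in 1 table per NaCl level; the counting tool, the normalization and the filter that set the listed genes are not given in the sources used here. Values were multiples of what 1 read is worth, with 100% of them whole to within 0.001 reads, so reads were recovered; in 3 OE1 libraries 1 read is worth close to 1, so the recovery rests on that test alone. Median-ratio factors computed over 12 libraries came within 0.0916% of the scaling in the files, and those computed within a table within 8.03%, so both tables were treated as on 1 scale. The authors' group means were not used.

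limma 3.58.1 in R 4.3.3 was fitted to log2(value + 1) of the 24922 genes in both tables, with 1 mean per group, a mean-variance trend and robust moderation, and p-values were adjusted over all genes in each comparison. For the difference of the responses, the interaction contrast was called at an adjusted p below 0.05, with no fold threshold. The methods call the replicates biological, but p-values measure only the spread between these 3 libraries a group, and an exact two-sided permutation test of 3 against 3 libraries cannot go below 0.1. Alternatives were edgeR 4.0.16 (with and without its filter) and DESeq2 1.42.0 on recovered reads, TMM scaling, equal totals, a pseudocount of 0.1, a minimum mean of 20, a replicate block, fits of 6 libraries, no fold threshold, a narrower member rule (96 genes) and each library left out.

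Named genes were, in each comparison, the 5 with the largest changes in each direction among DEGs whose groups did not overlap, those that were DEGs between genotypes in 1 direction at both NaCl levels, the 10 smallest interaction p-values, the 5 most read genes, those annotated for cis-zeatin, indole-3-acetate or C-glucosylation, and 8 characterised genes, of which 5 were members. Other genes in the text (neighbours, and members of the annotation classes and the lists) were named after their values were seen. The members and all lists were chosen with earlier results of these data known. Gene descriptions came from the deposited data, and all 67 members with an Entrez number were found in RefSeq. Roles of enzymes and of characterised genes, and names such as Os79, are background knowledge and were not tested here. No sequence is shown.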

Additional observations from a re-analysis of the deposited data

Results flagged for a closer look

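The response to NaCl differed between OE1 and TNG67 by the interaction test (limma, adjusted p below 0.05) in 14 glycosyltransferase genes. Values are the log2 fold change with NaCl in OE1 minus that in TNG67, each with 3 libraries a group. The response was more positive in OE1 for Os01g0179600 (1.65), Os05g0493600 (1.54), Os07g0201300 (1.33), Os04g0556500 (1.12), Os11g0599200 (0.96), Os04g0565200 (0.93) and Os01g0697100 (0.53). It was more negative for Os10g0122000 (-1.57), Os05g0527000 (-1.48), Os09g0518200 (-1.17), Os03g0757600 (-0.94), Os11g0145200 (-0.86), Os02g0755900 (-0.82) and Os03g0841600 (-0.76). Os01g0697100, with the smallest difference, had 673, 567 and 473 normalized counts in untreated TNG67 and 338, 313 and 415 in untreated OE1, and 669, 690 and 729 and 602, 656 and 624 with NaCl (adjusted p = 0.0438). Os03g0841600 had 620, 544 and 866 in untreated TNG67 and 866, 810 and 675 in untreated OE1, and 1018, 1137 and 1178 and 849, 704 and 762 with NaCl (adjusted p = 0.0369). The share of such genes, 13.5% of the members, stands beside 11.4% of all genes.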

How the results depend on the processing

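No called value of a named gene turned its direction in any alternative, while 32 of the 124 values that were no call changed sign in some fit. Of 76 calls of the 40 named genes, 60 were kept in every fit and 16 were lost in at least 1, all of these without some library and 7 of them also under another setting. Without the fold threshold the counts of members rose to 10 higher and 24 lower for OE1 against TNG67 at 0 mM NaCl, to 14 and 23 at 150 mM NaCl, to 38 upregulated (28 downregulated) by NaCl in TNG67 and to 37 upregulated (16 downregulated) in OE1. The share over all genes at that setting was not computed, so these counts have no background beside them. At an unadjusted limma p below 0.05, in the same order, 54, 49, 72 and 58 of the 104 genes passed. Over all 24922 genes 8559, 9177, 14728 and 11461 passed. edgeR, DESeq2, TMM scaling, equal totals, the pseudocount of 0.1, the minimum mean, fits of 6 libraries and the narrower rule kept each count within 1.5 times. Leaving out each library gave 2 to 3 higher and 9 to 11 lower at 0 mM NaCl, 4 to 8 higher and 5 to 8 lower at 150 mM NaCl (8 lower without replicate 2 of NaCl-treated TNG67), 20 to 24 upregulated and 17 to 22 downregulated by NaCl in TNG67, 17 to 21 and 10 to 11 in OE1, and 5 to 10 positive and 6 to 7 negative differences of the response. Replicate numbers did not pair the samples, since the deviations of same-numbered libraries correlated between -0.155 and 0.0462 over 18 pairs. With the replicate block the counts were 3 and 10, 6 and 5, 21 and 19, and 21 and 11, as without it, and 6 and 6 for the difference of the responses, and no named call was lost. Depth limits the 30 genes with under 10 reads in some library, whose fold changes depend on the pseudocount.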

Other observations

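Genes that the same descriptions select but that were listed at a single NaCl level are given here as reads, with no comparison across NaCl. Os04g0206500, the neighbour of Os79, was listed at 150 mM NaCl only, with 33, 43 and 75 reads in TNG67 and 37, 78 and 15 in OE1. Os10g0178500, also listed at 150 mM NaCl only, had 7, 11 and 4 reads in TNG67 and 0, 0 and 2 in OE1. Os04g0319800, annotated for cytokinin O-glucosylation and listed at 0 mM NaCl only, had 33, 23 and 22 reads in TNG67 and 21, 23 and 24 in OE1. Os09g0329200, listed at 0 mM NaCl only, had 6, 20 and 4 reads in TNG67 and 4, 0 and 1 in OE1. The other 11 of these 15 genes had at most 30 reads in any library. Os10g0442400, described as a UDP-glucosyl transferase in a spelling that the rule does not match, was lower in OE1 under NaCl-treated conditions (log2 fold change -1.19).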
